A study of Mus musculus with 6 samples.

Results

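The 31 genes described here carry pyruvate into the mitochondrion and run most steps of the citric acid cycle in mouse RAW264.7 cells, a macrophage-like line. They were chosen by symbol from the 23154 identifiers of the expression table, and all 31 had a row. They cover pyruvate import, pyruvate dehydrogenase with its kinases and phosphatases, the reactions that feed or drain the cycle, the cycle enzymes other than aconitase, isocitrate dehydrogenase and succinate dehydrogenase, and a few redox and lipoate genes. In the mitochondrial matrix, pyruvate dehydrogenase turns imported pyruvate into acetyl-CoA, its kinases switch it off by phosphorylation, and its phosphatases switch it back on. Pyruvate carboxylase makes oxaloacetate from pyruvate instead, and citrate synthase joins oxaloacetate with acetyl-CoA to start the cycle. In macrophages, this entry point and breaks in the cycle are known to differ between activation states.

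RNA was sequenced from 3 NUR77 and 3 GFP cultures. The NUR77 cultures came from a stable line carrying the pINDUCER20b-HA-NUR77 transgene, a doxycycline-inducible construct for the HA-tagged nuclear receptor NUR77. The GFP cultures came from a stable line carrying pINDUCER20b-GFP, which encodes green fluorescent protein in the same vector. Both lines received 1 µg/mL doxycycline for 18 hours, starting 24 hours after seeding, and each replicate had its own dish. Each group is therefore 1 stable line, so the transgene and other differences between the lines cannot be told apart, and a p-value reflects only how dishes of 1 line vary. The sources used here do not give whether a line descends from 1 clone, and no culture without doxycycline was analysed here.

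Levels are given as normalized reads, scaled so that all genes of a library sum to 10000000, and means are given ± SD over 3 libraries a line. Library depth was 11199468 to 14354453 reads in NUR77 libraries and 14350490 to 15929487 reads in GFP libraries, so 1 read was worth 0.628 to 0.893 normalized reads. Nr4a1, the gene of NUR77, averaged 300 ± 13.2 normalized reads in NUR77 cells and 160 ± 11.0 in GFP cells (SD, n = 3 each), a log2 fold change of 0.90 (SE 0.08, limma adjusted p = 5.5e-08). The sources used here do not give whether transgene reads count towards it. Of 8 macrophage markers, 7 passed the filter on low values and Mertk was near 0. Their summed level was 24242 to 24760 normalized reads in NUR77 libraries and 29735 to 30216 in GFP libraries. These markers moved in different directions: Cd68 (5136 in NUR77 cells and 14010 in GFP cells), Csf1r (log2 fold change -0.77) and Adgre1 (-0.59) fell, Itgam (9598 in NUR77 cells and 4224 in GFP cells) and Fcgr1 (0.23) rose, and Spi1 and Ptprc were not called. The summed level of 19 skeletal muscle markers was 183 to 448 in NUR77 libraries and 505 to 556 in GFP libraries, and most of the GFP sum was Tnni2 (75.5 in NUR77 cells and 364 in GFP cells) and Ryr1 (61.6 in NUR77 cells and 101 in GFP cells). Without these 2, set aside after their values were seen, the other 17 summed to 285, 69.7 and 60.5 in NUR77 replicates 1, 2 and 3 and to 58.8 to 67.6 in GFP libraries. That of 6 fibroblast markers, with Pdgfra at 0, was 29.4 to 113 in NUR77 libraries, also highest in replicate 1, and 17.6 to 22.3 in GFP libraries. The 4 epithelial markers summed to at most 0.893 in any library, and 4 of 5 lymphocyte markers were at 0 throughout. Without NUR77 replicate 1, 22 of the 29 tested genes described below were called, 16 higher and 6 lower, and the part of these markers in the results was not tested.

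Most of the changes were upward and small. Each level is an average over a dish, so fewer expressing cells and less RNA per cell cannot be told apart. Of the 31 genes, 29 had a mean of 10 or more normalized reads and were tested, while Pdk4 and Me3 were not. By limma with Benjamini-Hochberg adjustment over all 11201 tested genes, 21 of the 29 (72.4%) were called at an adjusted p under 0.05, where 66.7% of all tested genes were called. The 16 that rose in NUR77 cells made up 55.2% of the 29, against 38.4% of all tested genes. The 5 that fell, Mpc1, Pdhb, Dld, Suclg2 and Nnt, made up 17.2%, against 28.3% of all tested genes. Trimmed-mean (TMM) scaling, which moved the median of all tested genes by -0.07, gave 13 higher and 7 lower among the 29, and 3612 higher and 3835 lower among all tested genes, where the scaling used here gave 4305 higher and 3170 lower.

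Sizes stayed modest. The median log2 fold change of the 29 was 0.19, and that of all tested genes was 0.06. With TMM scaling it was 0.11 for the 29 and -0.01 for all tested genes. The median absolute log2 fold change was 0.24 for the 29 and 0.31 for all tested genes. Only Pcx was called with a change of 2-fold or more, which is 3.45% of the 29, against 13.9% of all tested genes. Called changes of 0.5 or more on the log2 scale were found for Pcx, Lipt1, Me2, Pdk3, Suclg2 and Pdk1, 20.7% of the 29, against 31.8% of all tested genes. The libraries of the 2 lines did not overlap for 21 of the 29 (72.4%), against 70.6% of all tested genes.

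**Figure D1:**
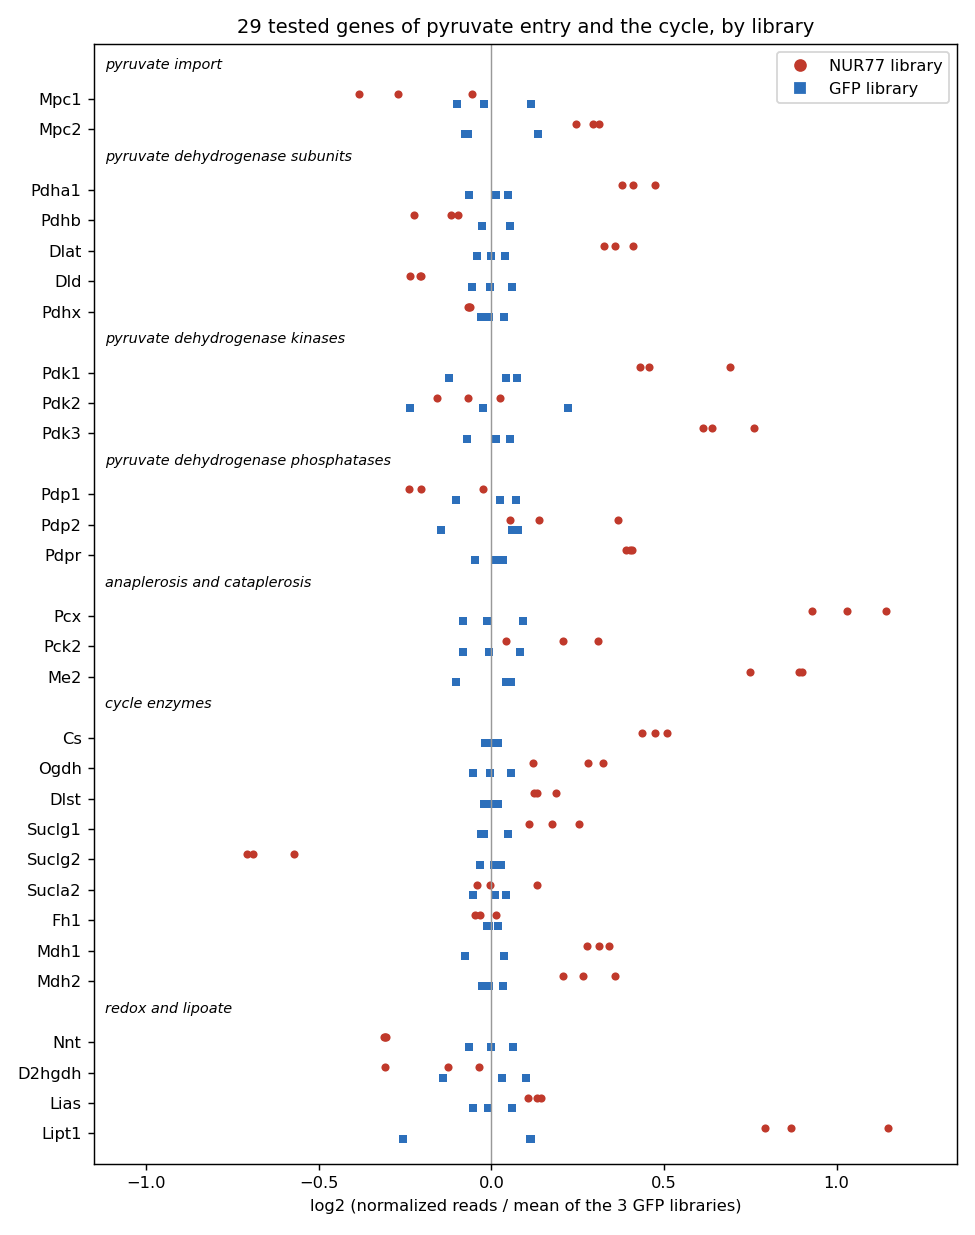
Level of each of the 29 tested genes in each library, as log2 of normalized reads over the mean of the 3 GFP libraries, grouped by role. Red circles are NUR77 libraries, blue squares are GFP libraries, and the vertical line marks the GFP mean. The red points of Pcx, Me2 and Lipt1 lie farthest to the right and those of Suclg2 farthest to the left.

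**Figure D2:**
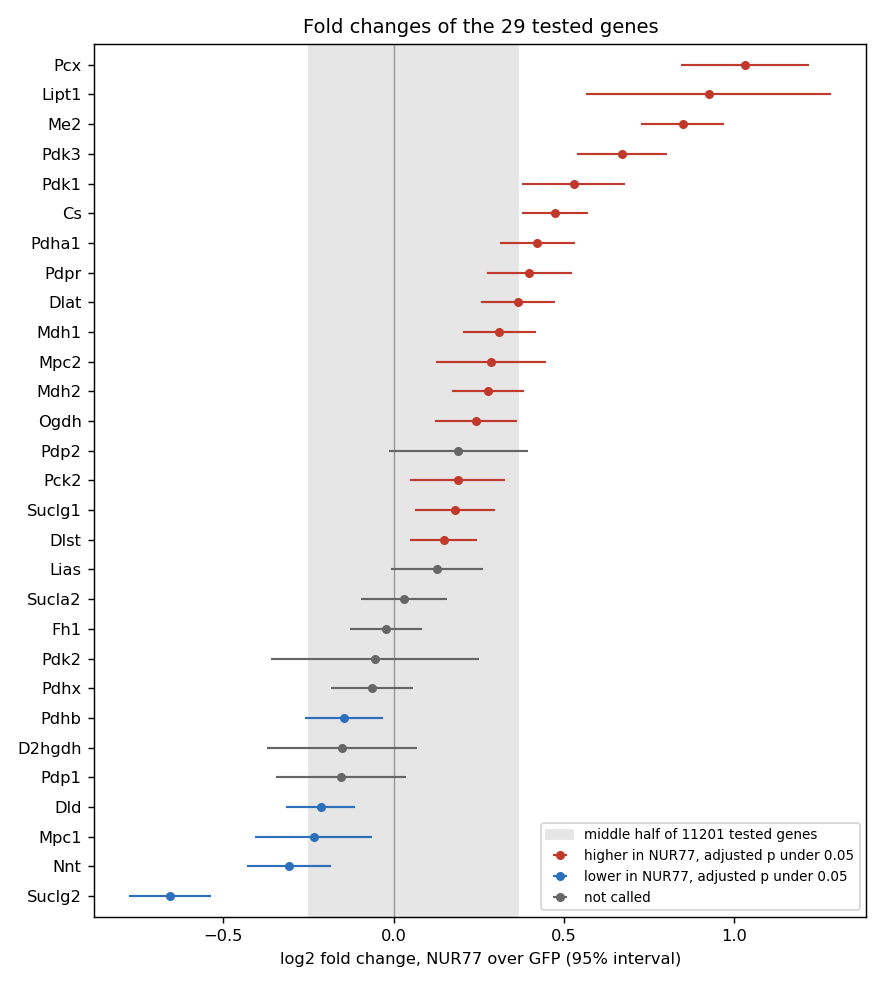
Log2 fold change of each tested gene, NUR77 over GFP, with its 95% interval from limma, ordered by size. The grey band is the interquartile range of all 11201 tested genes, -0.25 to 0.37. Of the 29 genes, 19 lie inside it, 8 above and 2 below.

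Promoter sequences are shown for the genes among the 6 with the larger changes whose start-site windows held a searched motif, so that the letters can be read beside the values that follow. RefSeq windows of the GRCm38.p6 build, 250 bases before to 50 after a start site, were at hand for 28 of the 31 genes, in 39 windows. Each sequence is the 250 bases before the start, 5′ to 3′ on the strand of the gene. Capitals mark ACGTG, a core sequence of the hypoxia response element, on either strand. Other forms of that core were not searched. In Suclg2, whose window held no ACGTG, they mark the CCAAT box. That box is also in the Pcx window shown (3 sites) and the Pdk3 window (1 site), unmarked. The windows are chr19:4510222-4510471 (plus strand) for Pcx, chrX:93832151-93832400 (minus strand) for Pdk3, chr1:37872100-37872349 (plus strand) for Lipt1 and chr6:95718847-95719096 (minus strand) for Suclg2.
Pcx: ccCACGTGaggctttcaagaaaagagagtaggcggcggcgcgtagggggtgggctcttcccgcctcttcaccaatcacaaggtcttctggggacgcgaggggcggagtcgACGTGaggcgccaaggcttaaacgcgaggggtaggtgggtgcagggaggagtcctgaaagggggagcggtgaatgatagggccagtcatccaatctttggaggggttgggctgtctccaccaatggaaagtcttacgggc
Pdk3: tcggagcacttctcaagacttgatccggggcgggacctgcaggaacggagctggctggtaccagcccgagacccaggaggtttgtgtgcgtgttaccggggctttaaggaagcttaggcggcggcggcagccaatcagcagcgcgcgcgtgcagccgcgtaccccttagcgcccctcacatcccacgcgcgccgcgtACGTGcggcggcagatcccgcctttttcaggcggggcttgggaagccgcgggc
Lipt1: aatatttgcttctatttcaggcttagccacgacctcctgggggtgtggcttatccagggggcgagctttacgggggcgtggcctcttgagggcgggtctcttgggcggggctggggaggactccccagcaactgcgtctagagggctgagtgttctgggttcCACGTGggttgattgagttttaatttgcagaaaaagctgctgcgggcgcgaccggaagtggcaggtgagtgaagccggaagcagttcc
Suclg2: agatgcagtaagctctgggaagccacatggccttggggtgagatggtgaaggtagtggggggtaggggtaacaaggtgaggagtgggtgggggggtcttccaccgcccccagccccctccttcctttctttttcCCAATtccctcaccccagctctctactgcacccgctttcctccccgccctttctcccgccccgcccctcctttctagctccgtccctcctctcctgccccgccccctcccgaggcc

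The motif search covered both strands of each window. The NBRE, AAAGGTCA, the element that NUR77 is known to bind as a monomer, was in none of the windows of the 28 genes and in 1.51% of all 32851 mouse windows. TCAAGGTCA, an estrogen-related receptor element, was in none of them and in 0.423% of all windows. AAGGTCA, contained in both of these, was in a window of Ogdh alone and in 4.72% of all windows. ACGTG was in windows of 10 genes, Lias, Lipt1, Mdh1, Ogdh, Pcx, Pdhb, Pdk2, Pdk3, Pdp2 and Pdpr, which is 41.0% of the 39 windows and 19.6% of all windows. CACGTG, the E-box that contains ACGTG on both strands, was in windows of 6 of these 10, all but Lias, Mdh1, Pdhb and Pdk3, which is 23.1% of the 39 windows and 7.15% of all. GCGCATGC, the core of the NRF1 site, was in a window of Ogdh alone and in 2.71% of all windows. CCAAT was in windows of 17 genes, 59.0% of the 39 windows and 37.4% of all. Median GC content was 61.0% in the 39 windows and 52.7% in all windows, and several windows belong to the same gene. Ogdh has several overlapping windows, so a single site there can count more than once in these shares. A second Pcx window and the windows of Pdk1 held no ACGTG. These matches describe the letters in the windows.

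Mpc1 and Mpc2 encode the subunits of the mitochondrial pyruvate carrier in the inner membrane, and they moved in opposite directions. Mpc2 (GRCm38 chr1:165460637-165481214, plus strand) had 347, 332 and 344 normalized reads in NUR77 libraries and 307, 266 and 267 in GFP libraries. The NUR77 libraries were all higher, and Mpc2 rose by a log2 fold change of 0.29 (SE 0.08, limma adjusted p = 0.0034). Mpc1 (chr17:8282904-8297661, plus strand) had 531, 458 and 423 normalized reads in NUR77 libraries and 598, 515 and 544 in GFP libraries. NUR77 replicate 1 lay within the GFP range, and Mpc1 fell by 0.23 on the log2 scale (SE 0.08, limma adjusted p = 0.018). Its call was lost without NUR77 replicate 2 (limma adjusted p = 0.064), NUR77 replicate 3 (0.094) or GFP replicate 1 (0.0995), and without the variance trend (0.080). The log2 ratio of Mpc1 to Mpc2 reads was 0.46 in NUR77 cells and 0.98 in GFP cells, with no overlap between the libraries. This ratio restates the changes of both genes.

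The 5 subunit genes of pyruvate dehydrogenase did not move as a block: 2 rose, 2 fell and 1 was not called. That is 80.0% called, against 66.7% of all tested genes. Pdha1 (chrX:160122209-160138413, minus strand) encodes the alpha subunit of the decarboxylating component, which the kinases phosphorylate. It had 2005, 1879 and 1919 normalized reads in NUR77 libraries and 1494, 1457 and 1381 in GFP libraries. All NUR77 libraries stood above all GFP libraries, and Pdha1 rose 1.34-fold, or 0.42 on the log2 scale (SE 0.05, limma adjusted p = 1.9e-06). Dlat (chr9:50634633-50659780, minus strand), the lipoyl-bearing acetyltransferase that forms the core, averaged 1573 ± 45.5 normalized reads in NUR77 cells and 1221 ± 34.4 in GFP cells (SD, n = 3 each). It rose 1.29-fold (a log2 change of 0.36, SE 0.05, limma adjusted p = 8.5e-06).

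Pdhb (chr14:8165996-8173025, minus strand), the beta subunit partner of Pdha1, averaged 1185 ± 55.6 normalized reads in NUR77 cells and 1310 ± 42.1 in GFP cells, and fell by 0.15 on the log2 scale (SE 0.05, limma adjusted p = 0.026). Its call was lost without NUR77 replicate 3 (limma adjusted p = 0.101), GFP replicate 1 (0.106) or GFP replicate 3 (0.0531), and without the variance trend (0.064). Dld (chr12:31331277-31351453, minus strand), the dihydrolipoamide dehydrogenase shared with the alpha-ketoglutarate and branched-chain complexes, had 3365, 3442 and 3431 normalized reads in NUR77 libraries and 3807, 4129 and 3947 in GFP libraries. It fell by 0.21 on the log2 scale (SE 0.05, limma adjusted p = 8.7e-04), with no overlap. Pdhx (chr2:103021075-103073513, minus strand), which anchors Dld to the core, had 541 to 543 normalized reads in NUR77 libraries and 555 to 581 in GFP libraries. Its log2 fold change of -0.06 was not called (95% interval -0.18 to 0.06, limma adjusted p = 0.34), although it was with TMM scaling (-0.14, limma adjusted p = 0.046).

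Ratios between subunits moved accordingly. The log2 ratio of Pdha1 to Pdhb reads was 0.71 ± 0.0697 in NUR77 cells and 0.14 ± 0.0391 in GFP cells, a difference of 0.57. The difference was 0.58 for Dlat to Dld and 0.43 for Dlat to Pdhx, and the libraries of the lines overlapped in none of these 3 ratios. Each ratio restates the changes of its genes given above, and ratios of other gene pairs were not computed for comparison. These are ratios of reads, not per length, so they are compared between lines only.

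**Figure D3:**
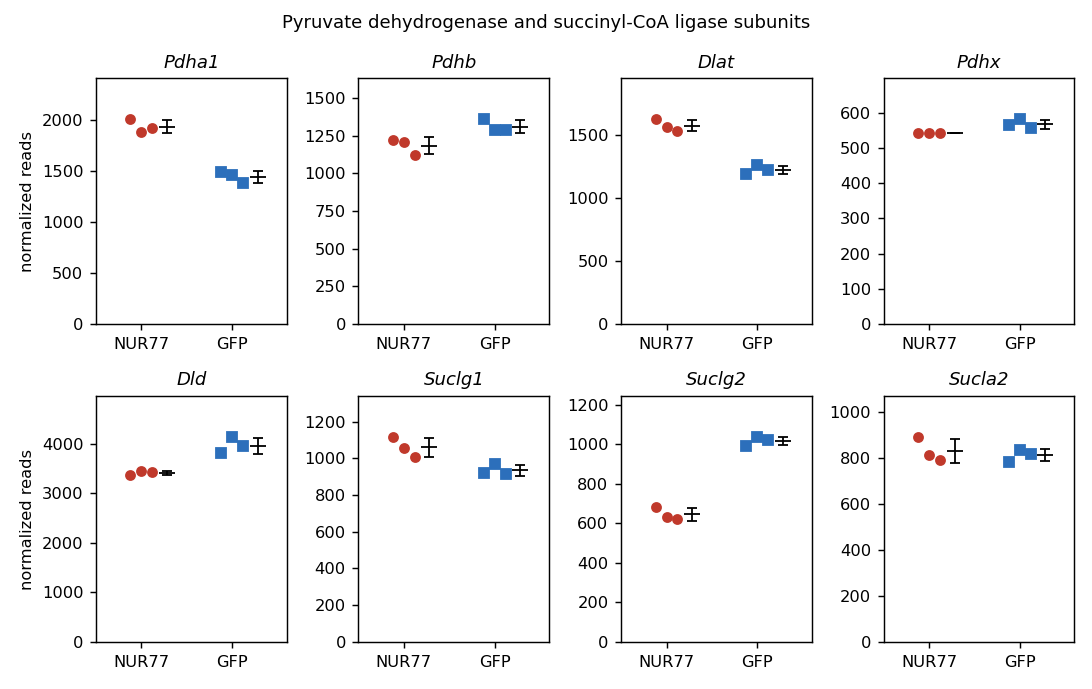
Normalized reads of the pyruvate dehydrogenase subunits and of the succinyl-CoA ligase subunits in each library. Points are libraries (NUR77 red circles, GFP blue squares), and bars are the mean ± SD of 3. Pdha1, Dlat and Suclg1 sit higher in NUR77 cells, while Pdhb, Dld and Suclg2 sit lower.

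Of the 4 kinases that inactivate pyruvate dehydrogenase, Pdk1 and Pdk3 rose, Pdk2 was not called and Pdk4 was hardly detected. Pdk3 (chrX:93764607-93832201, minus strand) had 810, 744 and 730 normalized reads in NUR77 libraries and 482, 455 and 495 in GFP libraries. All NUR77 libraries were well above the GFP range, and Pdk3 rose 1.59-fold (a log2 change of 0.67, SE 0.06, limma adjusted p = 5.8e-08). Pdk1 (chr2:71873224-71903858, plus strand), known as a target of hypoxia-inducible factor, had 1488, 1459 and 1749 normalized reads in NUR77 libraries and 1140, 996 and 1116 in GFP libraries. NUR77 replicate 3 was the highest, the groups did not overlap, and Pdk1 rose 1.44-fold (a log2 change of 0.53, SE 0.07, limma adjusted p = 6.8e-06).

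Pdk2 (chr11:95026258-95041354, minus strand) had 58.9, 62.7 and 66.8 normalized reads in NUR77 libraries and 76.7, 55.9 and 64.7 in GFP libraries. The groups overlapped, and the log2 fold change was -0.05 (95% interval -0.36 to 0.25, limma adjusted p = 0.75). Pdk4 (chr6:5483351-5496309, minus strand), known as the kinase induced by fasting in other tissues, had 0, 0 and 0.796 normalized reads in NUR77 libraries and 0, 0.628 and 0 in GFP libraries. That is 1 read in each line, so no fold is given.

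Per kilobase of annotated exon, the kinases kept 1 order in both lines, Pdk3 above Pdk1 above Pdk2. The level per kilobase was 297 in NUR77 cells and 186 in GFP cells for Pdk3, 201 in NUR77 cells and 139 in GFP cells for Pdk1, and 19.9 in NUR77 cells and 20.8 in GFP cells for Pdk2. As Pdk1 and Pdk3 rose, Pdk2 held a smaller share of the summed kinase level per kilobase, 3.83 ± 0.253% in NUR77 cells and 5.98 ± 0.680% in GFP cells, with no overlap. The share of Pdk1 was 38.8% in NUR77 cells and 40.2% in GFP cells. That of Pdk3 was 57.4% in NUR77 cells and 53.8% in GFP cells, and both shares overlapped between the lines.

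The phosphatase side changed less. Pdpr (chr8:111094630-111137074, plus strand), the regulatory subunit of the phosphatase, had 571, 573 and 567 normalized reads in NUR77 libraries and 437, 419 and 442 in GFP libraries. It rose 1.32-fold (a log2 change of 0.40, SE 0.06, limma adjusted p = 1.6e-05), with the NUR77 libraries tightly grouped above the GFP libraries. The catalytic subunits were not called. Pdp1 (chr4:11958184-11966452, minus strand) averaged 185 ± 14.9 normalized reads in NUR77 cells and 205 ± 12.5 in GFP cells, a log2 fold change of -0.15 (95% interval -0.34 to 0.04, limma adjusted p = 0.14). It was called lower with TMM scaling (-0.23, limma adjusted p = 0.034), with median-of-ratios (0.049) and upper-quartile scaling (0.044), and without NUR77 replicate 1 (0.046). Pdp2 (chr8:104591451-104599026, plus strand) averaged 233 ± 26.6 normalized reads in NUR77 cells and 204 ± 17.1 in GFP cells, a log2 fold change of 0.19 (95% interval -0.01 to 0.39, limma adjusted p = 0.092). It was called higher without NUR77 replicate 3 (0.25, limma adjusted p = 0.039).

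Set against phosphatase reads, kinase reads were higher in NUR77 cells. The reads of Pdk1 to Pdk4 summed to 2357, 2266 and 2547 in NUR77 libraries and 1699, 1507 and 1676 in GFP libraries. Those of Pdp1 and Pdp2 summed to 426, 437 and 390 in NUR77 libraries and 424, 375 and 428 in GFP libraries. The log2 ratio of the kinase sum to the phosphatase sum was 2.52 ± 0.172 in NUR77 cells and 1.99 ± 0.0206 in GFP cells, a difference of 0.52 with no overlap. The difference was 0.32 when the reads of Pdpr, a regulatory and not a catalytic subunit, were added to the phosphatase sum. As a mean of log2 values, in which low genes weigh as much as abundant ones, it was 0.28 and the groups overlapped. These are transcript levels, and the phosphorylation of the complex was not measured.

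**Figure D4:**
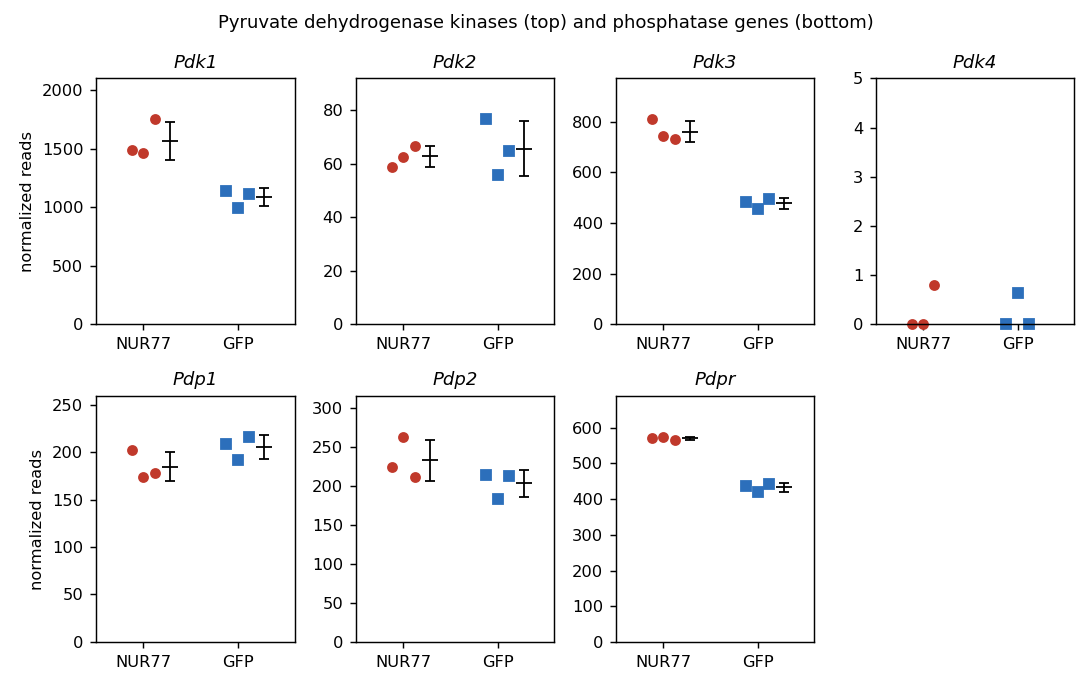
Normalized reads of the 4 kinases (top) and the phosphatase genes (bottom) in each library. Points are libraries (NUR77 red circles, GFP blue squares), and bars are the mean ± SD of 3, left out for Pdk4, which had 1 read in each line. Pdk1, Pdk3 and Pdpr are higher in all NUR77 libraries, while Pdk2, Pdp1 and Pdp2 overlap.

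All 3 tested genes of the reactions that feed or drain the cycle rose, against 38.4% of all tested genes. Pcx (chr19:4510472-4621752, plus strand), pyruvate carboxylase, had 257, 276 and 298 normalized reads in NUR77 libraries and 134, 127 and 144 in GFP libraries. The lowest NUR77 library was far above the highest GFP library, and Pcx rose 2.04-fold (a log2 change of 1.03, SE 0.09, 95% interval 0.84 to 1.22, limma adjusted p = 2.5e-08). The log2 fold change was 0.96 with TMM scaling, so the 2-fold line was met narrowly. Me2 (chr18:73769903-73815449, minus strand), the mitochondrial NAD-dependent malic enzyme that turns malate into pyruvate, had 2949, 2672 and 2966 normalized reads in NUR77 libraries and 1654, 1480 and 1637 in GFP libraries. It rose 1.80-fold (a log2 change of 0.85, SE 0.06, limma adjusted p = 1.2e-09), with no overlap.

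Pck2 (chr14:55540266-55551242, plus strand), the mitochondrial phosphoenolpyruvate carboxykinase that draws oxaloacetate out of the cycle, had 1745, 1958 and 2103 normalized reads in NUR77 libraries and 1689, 1797 and 1602 in GFP libraries. The groups overlapped, and it rose by a log2 fold change of 0.19 (SE 0.07, limma adjusted p = 0.019). This call was lost in 7 of 16 alternatives, among them TMM scaling (0.11, limma adjusted p = 0.13) and leaving out NUR77 replicate 2 (0.063), NUR77 replicate 3 (0.096) or GFP replicate 3 (0.108). Me3, the mitochondrial NADP-dependent malic enzyme, had no read in any of the 6 libraries, which allows up to 0.787 normalized reads in NUR77 cells and 0.658 in GFP cells (3 reads over a group, counting error only). The cytosolic malic enzyme Me1, outside the 31, averaged 1039 ± 113 normalized reads in NUR77 cells and 192 ± 12.9 in GFP cells (log2 fold change 2.43, limma adjusted p = 9.5e-14).

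Among the 9 cycle enzyme genes, 6 rose, 1 fell and 2 were not called, so 77.8% were called, against 66.7% of all tested genes. Cs (chr10:128337734-128362479, plus strand), citrate synthase, had 6367, 6695 and 6541 normalized reads in NUR77 libraries and 4643, 4765 and 4706 in GFP libraries. The libraries of each line were close together and far from the other line, and Cs rose 1.39-fold (a log2 change of 0.47, SE 0.05, limma adjusted p = 8.7e-08). Ogdh (chr11:6291633-6356642, plus strand), the decarboxylating component of the alpha-ketoglutarate dehydrogenase complex, averaged 3279 ± 237 normalized reads in NUR77 cells and 2771 ± 108 in GFP cells (log2 fold change 0.24, SE 0.06, limma adjusted p = 0.0013). Dlst (chr12:85110833-85134845, plus strand), the lipoyl-bearing core of that complex, averaged 3656 ± 89.4 normalized reads in NUR77 cells and 3301 ± 45.8 in GFP cells (log2 fold change 0.15, SE 0.05, limma adjusted p = 0.01). Both rose, but the Dlst call was lost with TMM (0.07, limma adjusted p = 0.19), median-of-ratios (0.108) and upper-quartile scaling (0.122) and without NUR77 replicate 2 (0.0518).

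Succinyl-CoA ligase makes succinate and a nucleoside triphosphate, and its genes split by subunit. Suclg2 (chr6:95473009-95718800, minus strand), the beta subunit of the GTP-forming enzyme, had 685, 630 and 623 normalized reads in NUR77 libraries and 994, 1036 and 1022 in GFP libraries. All NUR77 libraries were far below the GFP range, and Suclg2 fell by 0.66 on the log2 scale (SE 0.06, limma adjusted p = 2.4e-08). Sucla2 (chr14:73525319-73596142, plus strand), the beta subunit of the ATP-forming enzyme, had 890, 811 and 790 normalized reads in NUR77 libraries and 783, 837 and 819 in GFP libraries. Its groups overlapped, and its log2 fold change was 0.03 (95% interval -0.10 to 0.16, limma adjusted p = 0.68). Suclg1 (chr6:73248382-73276911, plus strand), the alpha subunit that both forms use, averaged 1060 ± 53.4 normalized reads in NUR77 cells and 935 ± 28.4 in GFP cells. It rose by a log2 fold change of 0.18 (SE 0.06, limma adjusted p = 0.0093), a call lost with TMM (0.11, limma adjusted p = 0.11), median-of-ratios (0.070) and upper-quartile scaling (0.078).

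The balance of the beta subunits differed between the lines, as Suclg2 fell and Sucla2 was not called. The log2 ratio of Suclg2 to Sucla2 reads was -0.38, -0.36 and -0.34 in NUR77 libraries and 0.34, 0.31 and 0.32 in GFP libraries, a difference of -0.69. It stayed between -0.70 and -0.68 when any 1 library was left out. Per kilobase of annotated exon, Suclg2 held 40.2 ± 0.299% of the summed beta subunit level in NUR77 cells and 51.9 ± 0.327% in GFP cells. Per kilobase of the principal transcript, it held 34.0 ± 0.279% in NUR77 cells and 45.3 ± 0.324% in GFP cells, so the order of the subunits in GFP cells depended on the length used, while the gap between lines did not.

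Fh1 (chr1:175600374-175625635, minus strand), fumarase, had 1212, 1200 and 1251 normalized reads in NUR77 libraries and 1234, 1254 and 1228 in GFP libraries. The groups overlapped, and the log2 fold change was -0.02 (95% interval -0.13 to 0.08, limma adjusted p = 0.72). Both malate dehydrogenases rose. Mdh2 (chr5:135778480-135790398, plus strand), the mitochondrial enzyme that closes the cycle, averaged 4884 ± 259 normalized reads in NUR77 cells and 4026 ± 89.7 in GFP cells (log2 fold change 0.28, SE 0.05, limma adjusted p = 1.2e-04). Mdh1 (chr11:21556787-21572367, minus strand), its cytosolic counterpart in the malate-aspartate shuttle, averaged 2789 ± 63.6 normalized reads in NUR77 cells and 2249 ± 100 in GFP cells (log2 fold change 0.31, SE 0.05, limma adjusted p = 3.9e-05). The log2 ratio of Mdh2 to Mdh1 reads was 0.81 in NUR77 cells and 0.84 in GFP cells, and the libraries overlapped. Per kilobase, Mdh2 had the highest level of the 31 genes in both lines, 1371 in NUR77 cells and 1130 in GFP cells.

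Of the redox and lipoate genes, Lipt1 rose, Nnt fell, and D2hgdh and Lias were not called. Lipt1 (chr1:37871738-37876228, plus strand) transfers lipoate onto the dehydrogenase cores such as Dlat and Dlst. It was the least abundant of the called genes, with 56.3, 68.3 and 53.3 normalized reads in NUR77 libraries and 25.8, 33.3 and 33.3 in GFP libraries. The groups did not overlap, and Lipt1 rose 1.90-fold (a log2 change of 0.92, SE 0.17, limma adjusted p = 1.4e-04), on 228 reads in NUR77 cells and 141 in GFP cells. Nnt (chr13:119335448-119408997, minus strand), the proton-driven transhydrogenase that makes NADPH in the matrix, averaged 539 ± 1.36 normalized reads in NUR77 cells and 667 ± 29.5 in GFP cells, and fell by 0.31 on the log2 scale (SE 0.06, limma adjusted p = 1.9e-04). Lias (chr5:65391497-65410693, plus strand), lipoyl synthase, averaged 433 ± 5.70 normalized reads in NUR77 cells and 397 ± 15.8 in GFP cells, with no overlap. Its log2 fold change of 0.13 was not called (95% interval -0.01 to 0.26, limma adjusted p = 0.087). D2hgdh (chr1:93824909-93852348, plus strand), which oxidises hydroxyglutarate to alpha-ketoglutarate, averaged 138 ± 13.0 normalized reads in NUR77 cells and 154 ± 12.9 in GFP cells (log2 fold change -0.15, 95% interval -0.37 to 0.07, limma adjusted p = 0.21).

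Several genes overlap an annotated gene on the opposite strand, and the sources used here do not give whether reads were counted by strand. Mitd1, which overlaps Lipt1 over 262 bases, averaged 200 normalized reads in NUR77 cells and 131 in GFP cells. Map3k15, which overlaps Pdha1 over 603 bases, averaged 136 in NUR77 cells and 264 in GFP cells. Wdpcp, which overlaps Mdh1 over 52 bases, averaged 97.9 in NUR77 cells and 220 in GFP cells. Partners with little expression overlap Mpc1 over 480 bases (0 normalized reads in NUR77 cells and 0.645 in GFP cells) and Pdpr over 169 bases (16.5 in NUR77 cells and 13.4 in GFP cells). On its own strand, Nnt shares 3339 bases, 47.4% of its exons, with another gene annotated under the same name, which has no row in the table used here, so the Nnt level is uncertain. The part of these overlaps in the members' values was not tested.

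The chromosomal surroundings of the genes were measured as well. For each of the 29 genes, the median log2 fold change of its 24 nearest tested genes was taken. These neighbours spanned 0.543 megabases around Cs, 9.73 around Pdha1 and 12.5 around Pdhb. The median was 0.77 around Pdha1, where 17 neighbours rose and 6 fell, so the surroundings of Pdha1 moved further than Pdha1 itself. The same held for Pck2, with 0.26 around it and 0.19 for the gene, while Pdhb (-0.15) fell among neighbours with a median of 0.17. For 22 of the 29 genes, the change of the gene was larger in size than the median of its neighbours. The rest also included Fh1 and Lias, which were not called. The medians were 0.30 around Pdpr, 0.27 around Pdk1 and 0.20 around Mdh1, below the log2 fold changes of these genes. They were 0.15 around Pcx, 0.12 around Me2, 0.10 around Cs, 0.09 around Suclg2, 0.00 around Pdk3 and -0.16 around Lipt1. A median of many genes lies nearer 0 than most single genes do, so these values are given as a description. The part of these surroundings in the results was not tested.

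**Figure D5:**
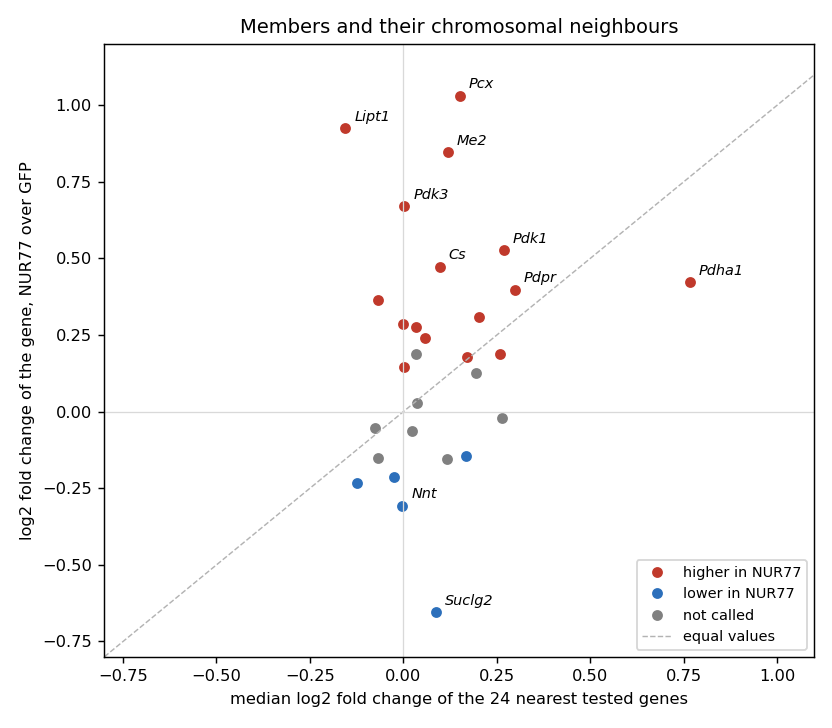
Log2 fold change of each of the 29 tested genes (vertical axis) against the median log2 fold change of its 24 nearest tested genes on the chromosome (horizontal axis), NUR77 over GFP. The dashed line marks equal values. Pdha1 has the highest median of neighbours, 0.77, while Pcx, Me2, Pdk3, Lipt1 and Suclg2 lie far from the line.

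The genes next to these in metabolism were counted in the same fit. Of the 12 other citric acid cycle genes, which cover aconitase, isocitrate dehydrogenase and succinate dehydrogenase, 0 rose and 5 fell (limma, median log2 fold change -0.12), so 41.7% were called, against 66.7% of all tested genes. At an unadjusted p under 0.05, which at least 66.7% of all tested genes passed, the counts were 0 higher and 8 lower. With limma-voom on recovered reads they were again 0 higher and 5 lower. Sdhc, a membrane anchor of succinate dehydrogenase, averaged 866 ± 49.1 normalized reads in NUR77 cells and 1247 ± 54.4 in GFP cells (log2 fold change -0.53, limma adjusted p = 4.9e-07). Idh1, the cytosolic isocitrate dehydrogenase, fell by 0.47 and Sdhb, the iron-sulfur subunit, by 0.36 on the log2 scale. Of 13 tested genes of lipoate and iron-sulfur supply, 1 rose and 3 fell (median -0.12), which is 30.8% called, against 66.7% of all tested genes. Those that fell included Cbr4 (-0.37) of mitochondrial fatty acid synthesis and the glutaredoxin Glrx5 (-0.28). Lipt2, the octanoyltransferase upstream of Lias, had the largest change of that list and was not called (-0.41, limma adjusted p = 0.093).

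Genes of other alpha-keto acid dehydrogenases and of their regulators gave 4 higher and 0 lower of 5 tested (limma, median log2 fold change 0.31). That is 80.0% called, against 66.7% of all tested genes. At an unadjusted p under 0.05, which at least 66.7% of all tested genes passed, the counts were 4 higher and 1 lower. With limma-voom they were 4 higher and 0 lower. Dbt, the core of the branched-chain complex, averaged 982 ± 36.8 normalized reads in NUR77 cells and 682 ± 19.9 in GFP cells (log2 fold change 0.53, limma adjusted p = 2.9e-07). The kinase Bckdk (0.31) and the phosphatase Ppm1k (0.38), which act on that complex in opposite ways, both rose. Of its other subunit genes, Bckdhb rose (0.19) and Bckdha was not called (-0.22, limma adjusted p = 0.055). All 5 tested genes thus belong to the branched-chain complex or act on it. Of 14 tested partners in cytosolic pyruvate, malate and citrate handling, 9 rose and 1 fell (median 0.17). That is 71.4% called, near the 66.7% of all tested genes. Beside Me1, the largest changes were those of the aspartate-glutamate carrier Slc25a12 (0.58) and the lactate exporter Slc16a3 (0.51). These lists were described by counts, and no test compared them with the 31 genes.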

How the data were processed

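The table the authors deposited holds log2 values of 6 libraries for 23154 Ensembl identifiers. The mm10 build and the tools TopHat2 2.1, HTSeq and DESeq2 are named per the submitters' processing notes, with no role for each. From the values, each is log2(normalized reads + 1), scaled so that every library sums to 10000000. Whole reads could be recovered within 0.1 read, which gave the depths. This scaling lets abundant genes that differ shift all others. Per the labels' protocols, poly(A) RNA from 1000 ng of total RNA went into stranded libraries with 12 PCR cycles.

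Members were matched by symbol through GENCODE M21, which named 22872 identifiers and gave the GRCm38 coordinates. limma 3.58.1 in R 4.3.3 was run on this log2 scale with trend and robust moderation of the variance and without covariates. Genes averaging under 10 normalized reads were left out. P-values are two-sided and Benjamini-Hochberg adjusted over 11201 genes, with a threshold of 0.05. Fold changes, NUR77 over GFP on this scale, understate changes of low genes. limma-voom on the recovered reads, whole for 100% of the values, was an alternative and called 7486 genes, where the main test called 7475. The script was tested on simulated data. Members, lists and tests were chosen with earlier results of these data known. All members are named, with values for every library of those called with a log2 change of 0.5 or more and of the kinases, and in each other list the 3 genes with the largest changes are named. No 2 replicates agreed within sampling noise. Alternatives were other scalings, filters, pseudocounts, limma settings, the replicate block and leaving out each library.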

Additional observations from a re-analysis of the deposited data

How the results depend on the processing

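Of the 29 tested genes, 20 kept their status, called or not called, under all 16 alternatives. Among these 20, Pdk2, Sucla2, Fh1, D2hgdh and Lias were never called. Lipt1 stayed called under the 15 alternatives that tested it, all but the filter at a mean of 50. The other 8 genes changed status under at least 1 alternative. In these fits no called gene changed direction. The calls of Dlst, Mpc1, Pck2, Pdhb and Suclg1 were lost under at least 1 alternative, and Pdhx, Pdp1 and Pdp2 gained one, with the values given beside each gene above. The number called was 21, and 20 with TMM scaling, 19 with upper-quartile or median-of-ratios scaling, 20 of 28 tested with the filter at a mean of 50 and 18 with limma without a trend. Leaving out 1 library gave 18 to 22 called, 14 to 16 higher and 3 to 6 lower. It was 3 lower without NUR77 replicate 3 or without GFP replicate 1. limma without a trend gave 15 higher and 3 lower. The count past 2-fold, 1 (Pcx), was 0 with TMM, upper-quartile and median-of-ratios scaling and without NUR77 replicate 3 or GFP replicate 2, and 0 to 1 over the libraries left out. The log2 fold change of Pcx ranged from 0.96 to 1.08 and stayed called. The kinase to phosphatase difference, 0.52, was 0.43 to 0.60 with 1 library left out, 0.32 with Pdpr added to the phosphatase sum and 0.28 as a mean of log2 values. The cause of these moves was not tested. With the replicate block, 21 genes were again called. Same-numbered libraries correlated in their deviations at 0.0016, 0.114 and 0.0447, and not every library correlated best with its own number, so the numbers were not taken as pairs. Depth limits Pdk4 and Me3, with at most 1 read a line, and Lipt1 and Pdk2 rest on the fewest reads of the tested genes.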
